A study of Mus musculus with 2 samples.

Results

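The 8 genes Fth1, Ftl1, Trf, Tfrc, Slc40a1, Slc11a2, Hmox1 and Cp, which serve iron storage, transport and release, were followed across the cell types of the adult mouse brain. They were chosen by gene symbol, with earlier results of these data known, and make up 8 of the 32285 genes counted. The series holds 2 single-cell RNA libraries of dissociated whole brain from 6-month-old mice, 1 per genotype. Both carry APP-KI, a knock-in of the amyloid precursor protein gene that serves as a model of Alzheimer's disease. The first has intact Fit2 (Fit2-WT) and the second has Fit2 disrupted in macrophages (Fit2-Mut), and there is no library without APP-KI. The labels give neither the number of mice in a library nor the Cre line or promoter behind the disruption, and the brain was broken up with an enzymatic dissociation kit, so cells lost in that step are not seen.

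With 1 library per genotype there is no replicate, and no p-value or standard error between genotypes can be given. Levels are given as CPM, the unique molecular identifiers (UMIs, counted transcript molecules) of a gene as counts per 1000000 UMIs of that cell type in that library. Each 95% interval is an exact Poisson, binomial or conditional interval and covers counting error only, not differences between mice or dissociations. After filtering, 5209 cells of the Fit2-WT library and 5824 of the Fit2-Mut library remained, with medians of 6817 and 7376 UMIs. Fitm2, the gene that encodes FIT2, had 16 UMIs in the microglia-like cells of the first library and 1 in those of the second (2.81 and 0.147 CPM), and 306 and 353 over all cells. A 3' tag may lie outside the part that was disrupted, so it checks the labels only in part.

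Iron enters most cells bound to transferrin (Trf) through the transferrin receptor (Tfrc), crosses membranes as ferrous iron through DMT1 (Slc11a2), is stored in ferritin, a shell of heavy (Fth1) and light (Ftl1) chains, and leaves through ferroportin (Slc40a1) with the help of the ferroxidase ceruloplasmin (Cp). Haem oxygenase (Hmox1) frees iron from haem. In the brain, oligodendrocytes are known as iron-rich cells that make transferrin, the endothelium of the blood-brain barrier takes up plasma transferrin, and microglia store iron in ferritin.

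Several of these transcripts carry an iron-responsive element, a short hairpin that iron regulatory proteins bind when iron is low: in a 5' UTR binding holds back translation, and in a 3' UTR it protects the transcript from decay. The elements are shown because a transcript count cannot read the first kind of control, while the second acts on the transcript level itself. Each line gives the 30 bases around the hairpin in transcript direction from the GRCm38 transcripts of GENCODE M21, with the 6-base loop in capitals. The search asked for CNNNNNCAGTGN on the transcript strand with at least 4 of 5 pairs in the upper stem (A-T, G-C or G-T), the one next to the loop among them.
Fth1, 5' UTR, chr19:9982732-9982761, plus strand: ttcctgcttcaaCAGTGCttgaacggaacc
Ftl1, 5' UTR, chr7:45459778-45459807, minus strand: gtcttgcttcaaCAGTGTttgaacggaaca
Slc40a1, 5' UTR, chr1:45925464-45925493, minus strand: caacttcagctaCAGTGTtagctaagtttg
Tfrc, 3' UTR, chr16:32631219-32631248, plus strand: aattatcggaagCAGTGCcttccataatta
Tfrc, 3' UTR, chr16:32631598-32631627, plus strand: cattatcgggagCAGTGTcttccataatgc
Tfrc, 3' UTR, chr16:32631663-32631692, plus strand: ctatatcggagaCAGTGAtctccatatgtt
Tfrc, 3' UTR, chr16:32631710-32631739, plus strand: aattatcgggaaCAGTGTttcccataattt
Slc11a2, 3' UTR of 1 isoform, chr15:100395152-100395181, minus strand: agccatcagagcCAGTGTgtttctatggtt

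The ferritin chains and ferroportin had 1 match each in the 5' UTR, and Tfrc had 4 in the 3' UTR, all with 5 of 5 pairs. The Slc11a2 match had 4 of 5 pairs and lay in the 3' UTR of the transcript Slc11a2-205. A position shared by several transcripts was listed once, so the line above means at least 1 isoform. Reads from any isoform without the match are counted as well. Trf, Hmox1 and Cp had no match in their UTRs, which says only that these letters were not found there. By the same rule 150 of 20423 genes (0.734%) had a match in a 5' UTR and 695 of 20841 (3.33%) in a 3' UTR. Among 3' UTRs within 20% of the length of that of Tfrc the share was 5.53%. A match is a description of the sequence and not a measured binding site.

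Cells were assigned to types from marker genes over 28 clusters, and a type is written "-like" since its name rests on markers. Of these, 15 types had at least 20 cells in each library and 7 had at least 100: choroid plexus epithelium-like, astrocyte-like, oligodendrocyte-like, microglia-like, endothelial-like, T cell-like and ependymal-like. The 7 types held 108 to 1441 cells of the first library and 136 to 1495 of the second. Haemoglobin transcripts of red blood cells are given as a check, since they enter every CPM. In Fit2-Mut they reached 27843 CPM in neuroblast-like, 25128 CPM in T cell-like and 23675 CPM in endothelial-like cells, against 17.9, 23.2 and 104 CPM in Fit2-WT. Choroid plexus epithelium-like cells had 2790 and 4628 CPM and astrocyte-like cells 2529 and 3077 CPM. In each of these high values at least 98.7% of the haemoglobin UMIs came from 5 cells. Leaving out cells with at least 1% haemoglobin UMIs moved no ratio of the 8 genes in the 7 larger types outside its counting interval, and left neuroblast-like Trf of Fit2-Mut at 50.1 CPM, against 48.1 CPM with all cells. The smooth muscle-like cluster also carried 7 of 7 pericyte markers. The border-associated macrophage-like cluster also carried 10 microglial and 6 dividing cell markers. The neuroblast-like cluster also carried 6 dividing cell and 6 neuron markers. With finer clusters (resolution 2) the former name kept 49 and 48 cells and the latter 56 and 126. A dividing cluster of 22 and 49 cells, with 8 neuroblast and 9 microglial markers, then appeared.

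Free RNA in the suspension was read from the barcodes with 10 to 100 UMIs (75833 and 76390 of them). It held Fth1 at 5630 and 6936 CPM and Trf at 907 and 1266 CPM, and 7 summed markers of oligodendrocytes at 2765 and 3641 CPM. A low share of cells with a UMI of these genes is therefore set beside a type that should lack the gene.

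**Figure D1:**
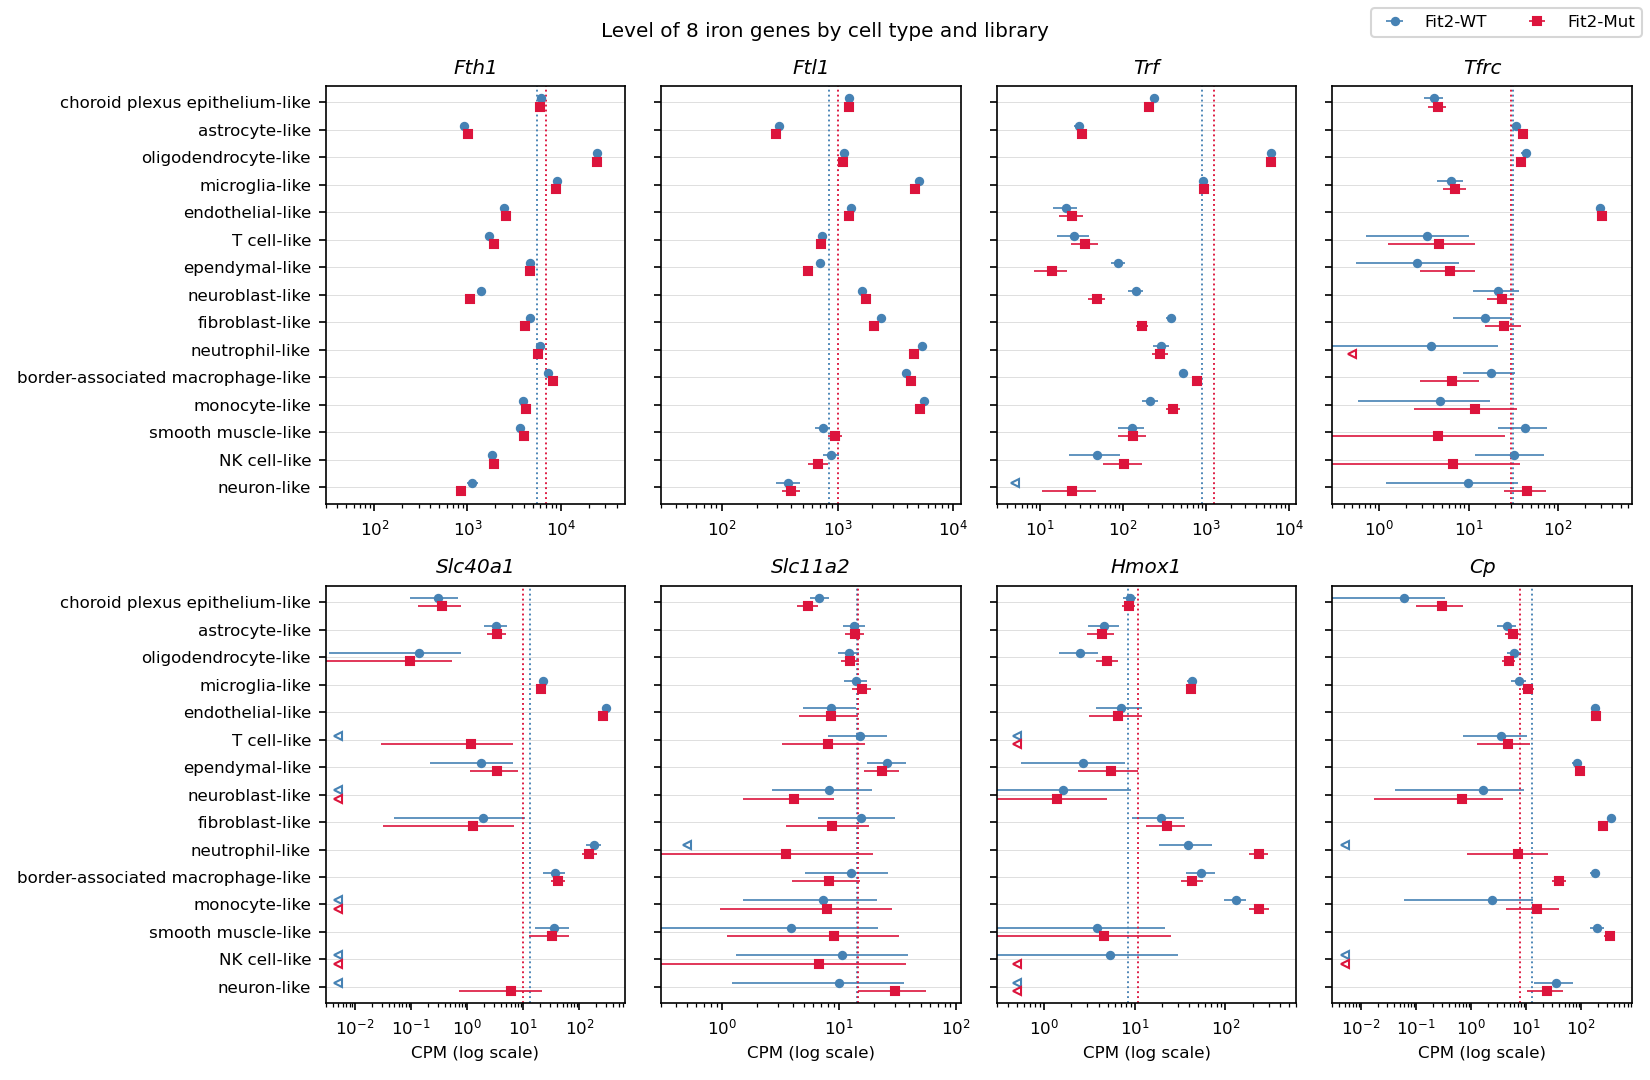
Level of each of the 8 genes in CPM (log axis) in 15 cell types, blue circles for Fit2-WT and red squares for Fit2-Mut, with exact Poisson 95% intervals. Dotted lines mark the level in free RNA and open triangles a type with 0 UMIs. Fth1 and Trf peak in oligodendrocyte-like cells, Tfrc and Slc40a1 in endothelial-like cells, and the markers of both libraries lie close together in most types.

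The heavy chain of ferritin, Fth1, carries the ferroxidase activity that loads iron into the shell. It was highest in oligodendrocyte-like cells in both libraries, at 24651 CPM (24538 to 24765) in Fit2-WT and 24565 CPM (24469 to 24661) in Fit2-Mut. Together with Ftl1 it made up 2.58% and 2.57% of all UMIs of the type. Microglia-like cells followed at 9053 CPM (8975 to 9131) and 8921 CPM (8850 to 8992).

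Border-associated macrophage-like cells were next for Fth1, with 7274 CPM in Fit2-WT and 8392 CPM in Fit2-Mut. With finer clusters the 49 and 48 cells of that name had 6413 and 9545 CPM. Choroid plexus epithelium-like cells, which make cerebrospinal fluid, had 6145 and 5994 CPM, and neutrophil-like cells 5943 and 5680 CPM. These 2 types could not be ordered, since their intervals overlapped in both libraries. Ependymal-like cells, the ciliated lining of the ventricles, had 4740 and 4741 CPM.

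Astrocyte-like cells stood at the low end for Fth1, at 928 CPM (904 to 953) and 1010 CPM (988 to 1031). The neuron-like cells, only 24 and 37 in number, had 1131 and 856 CPM, and neuroblast-like cells 1402 and 1058 CPM. With finer clusters the neuroblast-like cells had 943 and 858 CPM and the dividing cluster 4259 and 3829 CPM. In Fit2-WT, 5 of the 24 neuron-like cells carried 79.8% of the type's Fth1 UMIs, and the other 19 stood at 346 CPM. Endothelial-like cells lay between these and the macrophages at 2480 and 2594 CPM, as did fibroblast-like (4712 and 4151), monocyte-like (3909 and 4216) and smooth muscle-like cells (3653 and 4079). T cell-like (1723 and 1922) and NK cell-like cells (1833 and 1950) were low. Of the 14 pairs of neighbours in this order, 4 overlapped in Fit2-WT and 5 in Fit2-Mut, so the order of Fth1 was mostly resolved within a library.

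Outside the astrocyte-like, neuroblast-like and neuron-like cells, at least 85.4% of the cells of every type held a Fth1 UMI. The share was 69.9% (67.2 to 72.5) and 77.6% (75.4 to 79.7) of astrocyte-like cells, and 99.8% and 100% of microglia-like cells. With every cell thinned to 1000 UMIs, to remove the difference in depth between types, the astrocyte-like shares were 41.8% and 45.9% and the microglia-like shares 98.7% and 99.1%. The astrocyte-like level lay below that of free RNA in both libraries.

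The light chain, Ftl1, which helps iron settle in the shell, had another order. Monocyte-like cells had 5577 CPM (5351 to 5810) and 5177 CPM (4902 to 5464), and neutrophil-like cells 5413 (5135 to 5702) and 4572 CPM (4328 to 4827). Microglia-like cells had 5009 (4951 to 5068) and 4699 CPM (4647 to 4751), and border-associated macrophage-like cells 3890 and 4327 CPM. Monocyte-like cells overlapped with neutrophil-like cells in Fit2-WT and stood above the others in Fit2-Mut, where neutrophil-like and microglia-like cells overlapped. All 4 are myeloid types, and every other type was at 2365 CPM or lower in both libraries.

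Oligodendrocyte-like cells, the highest for Fth1, had Ftl1 at 1139 (1115 to 1164) and 1112 CPM (1092 to 1132). That is close to the level in endothelial-like cells (1313 and 1246) and choroid plexus epithelium-like cells (1256 and 1250). Fibroblast-like cells had 2365 and 2072 CPM and neuroblast-like cells 1617 and 1754 CPM. The lowest values were in astrocyte-like cells (315 and 293) and neuron-like cells (377 and 399). T cell-like (733 and 721), ependymal-like (702 and 552), smooth muscle-like (745 and 959) and NK cell-like cells (876 and 677) lay between. A pseudogene that shares sequence with Ftl1, Ftl1-ps1, drew 667 and 1035 UMIs, or 0.908 and 1.18 per 100 UMIs of Ftl1. The loss of reads that match both copies was not measured, so the level of Ftl1 is uncertain to that extent.

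Because both chains are counted in the same cells, their ratio shows the balance of the pair, and it was compared across types and not read as a ratio of molecules. Oligodendrocyte-like cells had 21.6 (21.2 to 22.1) UMIs of Fth1 per UMI of Ftl1 in Fit2-WT and 22.1 (21.7 to 22.5) in Fit2-Mut. Microglia-like cells had 1.81 (1.78 to 1.83) and 1.90 (1.87 to 1.92). At the other end, monocyte-like cells had 0.701 and 0.814 and neuroblast-like cells 0.867 and 0.603, the only types with more light than heavy chain UMIs in both libraries.

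Between these ends lay ependymal-like cells at 6.76 and 8.60, smooth muscle-like cells at 4.90 and 4.25, and choroid plexus epithelium-like cells at 4.89 and 4.80. Fibroblast-like (1.99 and 2.0), endothelial-like (1.89 and 2.08) and border-associated macrophage-like cells (1.87 and 1.94) were near the microglial value. Free RNA had 6.64 and 6.91, above the monocyte-like and neuroblast-like values and below the oligodendrocyte-like values. The part of free RNA in the ratio of any type was not tested.

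**Figure D2:**
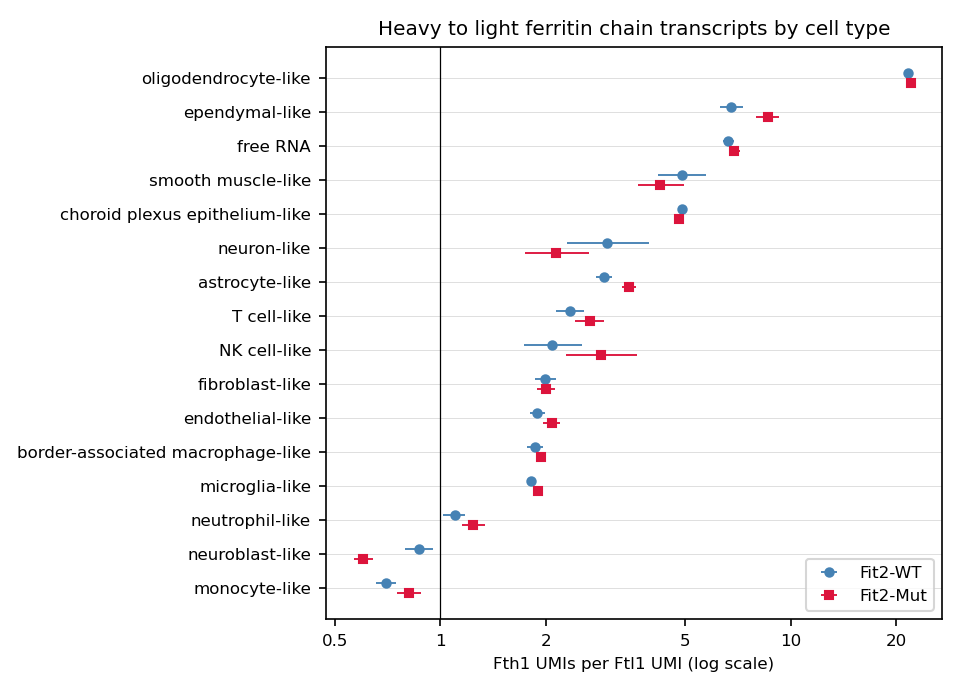
UMIs of Fth1 per UMI of Ftl1 (log axis) for 15 cell types and free RNA, ordered by the Fit2-WT value, with 95% intervals for counting error. The line marks 1. Oligodendrocyte-like cells stand apart at 21.6 and 22.1, and monocyte-like and neuroblast-like cells lie below 1 in both libraries.

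Trf encodes transferrin, the carrier of ferric iron in plasma and in brain fluid. Oligodendrocyte-like cells had 6112 CPM (6056 to 6169) in Fit2-WT and 6176 CPM (6128 to 6224) in Fit2-Mut. Microglia-like cells came second at 925 (900 to 950) and 954 CPM (931 to 978), with a Trf UMI in 95.4% and 97.0% of cells, or 57.0% and 59.9% after thinning. Border-associated macrophage-like cells had 535 and 776 CPM and choroid plexus epithelium-like cells 239 and 207 CPM.

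Since oligodendrocyte markers were abundant in free RNA, Trf was set beside the summed UMIs of 7 oligodendrocyte markers (Mbp, Mog, Mag, Cnp, Mobp, Cldn11, Ermn). Oligodendrocyte-like cells had 36.4 and 37.0 Trf UMIs per 100 marker UMIs, and free RNA had 32.8 and 34.8. Endothelial-like cells (32.8 and 35.2) were near that ratio, astrocyte-like (16.8 and 19.7) and T cell-like cells (10.5 and 12.7) were below it, and their Trf was at or below 34.7 CPM. The part of oligodendrocyte RNA in these low levels was not tested.

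Microglia-like cells instead had 744 and 854 Trf UMIs per 100 marker UMIs, border-associated macrophage-like cells 341 and 699, and choroid plexus epithelium-like cells 452 and 339. Their markers summed to only 124 and 112, 157 and 111, and 52.9 and 61.1 CPM. All 3 types had more Trf per marker UMI than free RNA or the oligodendrocyte-like cells in both libraries. Trf UMIs were also spread widely in them, with 5.27% and 5.51% of the microglia-like and 5.53% and 6.77% of the choroid plexus epithelium-like UMIs in the 5 cells that held most.

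The remaining types had fewer Trf UMIs. Fibroblast-like cells had 384 and 170 CPM (127 and 77.7 per 100 marker UMIs), neutrophil-like cells 290 and 279 CPM (91.6 and 77.7) and monocyte-like cells 213 and 408 CPM (66.7 and 38.7). With finer clusters a fibroblast-like cluster of 38 and 65 cells had 8.45 and 19.1 CPM. Another with 22 Fit2-WT cells had 1190 CPM in that library. Smooth muscle-like cells had 127 and 132 CPM, but 93.9% and all of these UMIs came from 5 cells. NK cell-like cells had 9 and 15 UMIs (48.4 and 102 CPM). Neuron-like cells had no Trf UMI in Fit2-WT, against a limit of 3 counts, and 8 UMIs in Fit2-Mut (24 CPM).

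**Figure D3:**
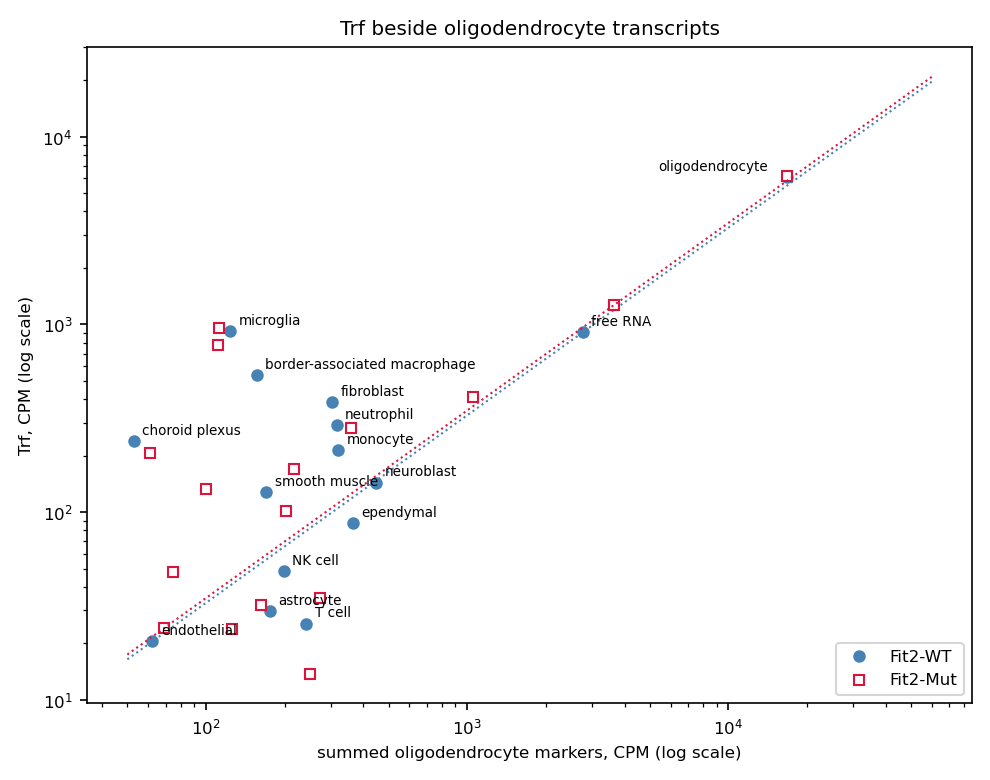
Trf against the summed level of 7 oligodendrocyte markers, both in CPM on log axes, for each cell type and free RNA, with filled circles for Fit2-WT and open squares for Fit2-Mut. Dotted lines, which nearly coincide, show the ratio in the free RNA of each library, and neuron-like cells of Fit2-WT (0 UMIs) are not drawn. Microglia-like, border-associated macrophage-like and choroid plexus epithelium-like cells lie far above the lines, endothelial-like cells near them and astrocyte-like and T cell-like cells below them.

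Tfrc encodes the receptor that takes up iron-loaded transferrin, and its transcript holds the 4 elements printed above. Endothelial-like cells stood alone, with 294 CPM (270 to 320) in Fit2-WT and 307 CPM (280 to 336) in Fit2-Mut. A Tfrc UMI was seen in 54.1% (49.2 to 58.8) and 53.4% (47.9 to 58.8) of them at medians of 3895 and 3944 UMIs per cell. In T cell-like cells, which are of similar depth (4161 and 4168), the share was 1.62% and 1.60%.

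Oligodendrocyte-like cells had 43.4 (38.7 to 48.4) and 38.8 CPM (35.1 to 42.8) of Tfrc, and astrocyte-like cells 34.0 (29.5 to 39.0) and 40.7 CPM (36.5 to 45.3), so these glia could not be ordered. Free RNA held Tfrc at 31.8 and 30.1 CPM. Microglia-like cells, rich in ferritin, had 6.33 and 7.06 CPM from 36 and 48 UMIs. Choroid plexus epithelium-like cells had 4.11 and 4.52 CPM. Neuron-like cells had 2 and 15 UMIs (9.92 and 45.0 CPM), with wide intervals (1.2 to 35.9 and 25.2 to 74.3), and smooth muscle-like cells 11 UMIs and 1 UMI. The other types had 34 UMIs or fewer in each library. All neighbours in the order but the endothelial-like cells and the type after them overlapped (13 of 14 pairs in each library).

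Slc11a2 encodes DMT1, which carries ferrous iron out of the endosome and into the cytosol. It was low in every type, and all 14 pairs of neighbouring types overlapped in both libraries. The level was 25.8 (17.3 to 37.1) and 23.4 CPM (16.2 to 32.7) in ependymal-like cells, 14.1 and 15.6 in microglia-like, 13.5 and 13.7 in astrocyte-like and 12.1 and 12.4 in oligodendrocyte-like cells. Endothelial-like cells had 8.61 and 8.51 CPM and choroid plexus epithelium-like cells 6.79 (5.60 to 8.16) and 5.42 CPM (4.36 to 6.66). Neuron-like cells of Fit2-Mut had 30 CPM, but from 10 UMIs. Free RNA was at 14.2 and 14.5 CPM, with intervals (10.6 to 18.5 and 11 to 18.9) that no type lay wholly above. That is the level in free RNA alone: scaled by haemoglobin, free RNA made up 1.10% and 0.845% of the oligodendrocyte-like and 1.11% and 0.907% of the microglia-like UMIs. Whether haemoglobin traces the rest of free RNA was not tested. The 7 oligodendrocyte markers were at 124 and 112 CPM in microglia-like cells, against 2765 and 3641 CPM in free RNA, a larger share. An antisense gene that was also counted, Gm5475, overlaps Slc11a2.

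Slc40a1 encodes ferroportin, the known exporter of iron from cells. Endothelial-like cells again led, with 302 CPM (277 to 328) in Fit2-WT and 265 CPM (240 to 292) in Fit2-Mut and a UMI in 60.6% and 59.3% of cells. Neutrophil-like cells came second at 179 CPM (132 to 238) and 150 CPM (109 to 202), with a UMI in 44.3% (32.4 to 56.7) and 41.0% (28.6 to 54.3) of cells. Thinned to 1000 UMIs, 26.7% and 22.1% of endothelial-like and 15.7% and 16.4% of neutrophil-like cells held one.

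Few or no ferroportin UMIs were found in the lymphocytes and monocytes: T cell-like cells had 0 UMIs and 1 UMI, and monocyte-like and NK cell-like cells had 0 in both libraries. A count of 0 in 67 and 43 monocyte-like cells allows up to 4.48% and 6.98% of cells with a UMI. Microglia-like cells had 22.7 (18.9 to 26.9) and 20.6 CPM (17.3 to 24.3) from 129 and 140 UMIs. The border-associated macrophage-like level, 36.0 and 41.1 CPM, rested on few cells, since 95% and 74.0% of its UMIs were in 5 cells. Oligodendrocyte-like cells, the richest in Fth1 and Trf, had 1 UMI of Slc40a1 in each library (0.136 and 0.0972 CPM, against 13.4 and 9.78 CPM in free RNA). Choroid plexus epithelium-like cells had 5 and 6 UMIs, ependymal-like 2 and 5, and astrocyte-like 20 and 28 (3.30 and 3.33 CPM).

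Within the endothelial-like cells the importer and the exporter were found in the same cells. Slc40a1 was detected in 72.5% of the Fit2-WT cells with a Tfrc UMI and in 46.5% of those without one, and in 68.0% and 49.4% in Fit2-Mut. The cells with a Tfrc UMI were slightly deeper (medians of 4086 against 3664 UMIs, and 4288 against 3849.5), and the part of that depth in the difference was not tested.

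Cp encodes ceruloplasmin, a copper enzyme that oxidises ferrous iron as it leaves the cell. It was highest in fibroblast-like and vessel cells: fibroblast-like cells had 355 (306 to 410) and 248 CPM (215 to 285), smooth muscle-like cells 197 (147 to 259) and 336 CPM (264 to 422), and endothelial-like cells 183 (164 to 204) and 190 CPM (169 to 213). With finer clusters Cp was at 107 and 113 CPM in a fibroblast-like cluster of 38 and 65 cells. In another, of 22 Fit2-WT and 16 Fit2-Mut cells, Cp was at 888 CPM in Fit2-WT. Ependymal-like cells had 84.7 and 93.7 CPM, with a UMI in 46.3% and 50.7% of cells. Astrocyte-like cells had 4.46 (2.94 to 6.49) and 5.71 CPM (4.21 to 7.58), below free RNA at 12.9 and 7.67 CPM or overlapping with it. With finer clusters an astrocyte-like cluster led by Emid1 and Gdf10 (71 and 88 cells) had Cp at 36.0 and 64.0 CPM. The other astrocyte-like clusters had 4.93 CPM or less. Choroid plexus epithelium-like cells had 1 and 5 UMIs, and microglia-like cells 7.38 and 10.9 CPM. Border-associated macrophage-like cells had 178 and 40.3 CPM, mostly in few cells, as described with the genotypes. Hps3, which overlaps Cp on the other strand, was counted as well.

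Hmox1 encodes the inducible haem oxygenase. Monocyte-like cells had 129 (96.3 to 168) and 235 CPM (180 to 303), the highest value in each library. In Fit2-Mut 86.7% of these UMIs lay in 5 cells, without which the level was 34.4 CPM, below that of microglia-like cells. Border-associated macrophage-like cells had 54.0 and 42.8 CPM, and microglia-like cells 42.5 (37.3 to 48.2) and 41.2 CPM (36.5 to 46.3), with a UMI in 27.3% and 31.4% of cells. Neutrophil-like cells had 38.1 CPM in Fit2-WT and 234 CPM (181 to 297) in Fit2-Mut, where they overlapped with monocyte-like cells. Of the 67 UMIs behind the latter value, 94.0% came from 5 cells, whose 10 microglial markers summed to 10409 CPM against 1098 CPM in the other 56 Fit2-Mut cells. Without those 5 cells the Fit2-Mut neutrophil-like level was 18.8 CPM. In Fit2-WT the 10 UMIs lay in 10 cells, so no highest cells could be set apart there.

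Outside the myeloid types Hmox1 was low, with 8.81 and 8.55 CPM in choroid plexus epithelium-like, 4.62 and 4.29 in astrocyte-like and 2.46 and 4.96 CPM in oligodendrocyte-like cells. T cell-like and neuron-like cells had 0 UMIs in both libraries. A 0 in 185 and 187 T cell-like cells allows up to 1.62% and 1.60% of cells with a UMI. Fibroblast-like cells, at 19.2 and 22.4 CPM, were the highest of the non-immune types.

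Clusters within a type were described without a test, since they were drawn on the same cells. The microglia-like cells formed 3 clusters. Cluster 14, led by Tmem119 and P2ry12 (102 and 104 cells), genes of resting microglia, had Fth1 at 5122 and 5191 CPM and Ftl1 at 3023 and 3008 CPM. Cluster 7, led by Spp1, Gpnmb, Itgax and Lpl (303 and 336 cells), genes known from microglia around amyloid plaques, had Fth1 at 8384 and 8662 CPM and Ftl1 at 4601 and 4464 CPM. Cluster 11 (141 and 118 cells) had the most, with Fth1 at 16145 and 16360 CPM and Ftl1 at 8960 and 9052 CPM.

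Ferroportin was highest where ferritin was lowest among the 3 microglia-like clusters. Slc40a1 was at 72.9 (54.6 to 95.4) and 63.7 CPM (48.3 to 82.5) in cluster 14, 16.3 and 15.4 CPM in cluster 7 and 10.1 (4.34 to 19.8) and 3.16 CPM (0.383 to 11.4) in cluster 11, which overlapped with cluster 7 in Fit2-WT. Hmox1 was at 59.2 and 57.0, 42.7 and 40.9, and 26.4 and 20.6 CPM in the same order, while Trf was of like level in all 3, from 722 to 987 CPM. Cluster 11 also differed in RNA make-up: the nuclear transcript Malat1 was 0.0727% and 0.0674% of its UMIs, against 1.07% and 1.11% in cluster 7, and ribosomal protein transcripts were 28.7% and 28.8% against 16.0% and 15.6%. The part of this in its ferritin level was not tested.

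Both oligodendrocyte-like clusters were rich in Fth1 and Trf, cluster 6 more so. Cluster 2, led by Opalin and with Il33 among its leading genes (443 and 557 cells), had Fth1 at 19945 and 19510 CPM and Trf at 4112 and 4097 CPM. Cluster 6, led by Klk6 and with Anln (293 and 372 cells), had 28790 and 29094 CPM of Fth1 and 7872 and 8039 CPM of Trf. Ftl1 did not follow, at 1163 and 1174 CPM in cluster 2 and 1119 and 1056 CPM in cluster 6, so the heavy to light chain ratio was 17.2 and 16.6 in the former and 25.7 and 27.5 in the latter. Tfrc was 32.9 and 27.8 against 52.6 and 48.7 CPM. Cells of cluster 6 were deeper (medians of 12407 and 13418 UMIs against 7621 and 8391).

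The endothelial-like cells held a large cluster 4, with the capillary genes Car4 and Ly6c1 among its leaders (409 and 323 cells), and a small cluster 27, with the arterial genes Bmx, Gkn3 and Sema3g (22 and 16 cells). Tfrc was at 312 and 326 CPM in cluster 4 and at 1 UMI per library in cluster 27 (9.0 and 11.2 CPM). Slc40a1 was at 318 and 280 against 45.0 and 22.3 CPM. Cp went the other way, at 154 and 163 CPM in cluster 4 and 648 and 625 CPM in cluster 27. With finer clusters the corresponding group had 59 and 42 cells, and its values lay nearer to the rest (Tfrc 74.6 and 77.7, Slc40a1 146 and 105, Cp 393 and 416 CPM).

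Among astrocyte-like cells, clusters 3 and 9 had little ferritin, with Fth1 at 263 and 322 CPM and at 337 and 232 CPM. Their ribosomal protein transcripts were only 0.363% and 0.321%, and 0.403% and 0.259%, of UMIs. Clusters 5 and 8 had Fth1 at 1032 and 1152 CPM and at 1665 and 1620 CPM with ribosomal shares of 1.27% and 1.34%, and 2.23% and 2.05%. Cluster 15 had a higher ribosomal share than cluster 5, 1.45% and 1.56%, but less Fth1, at 582 and 942 CPM. The part of RNA make-up in the low astrocyte-like Fth1 level was not tested. The 2 choroid plexus epithelium-like clusters differed little, with Fth1 at 5894 and 5879 CPM and at 6446 and 6144 CPM.

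**Figure D4:**
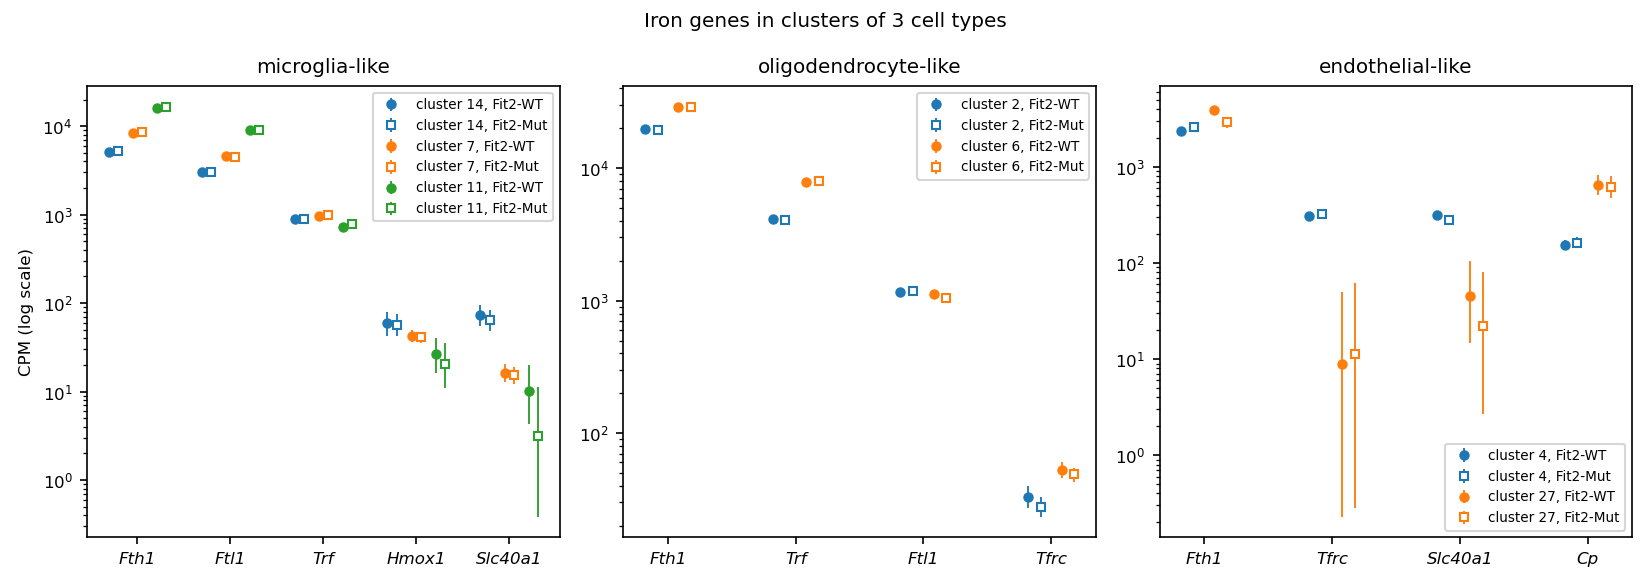
Levels in CPM (log axis) of the named iron genes in the clusters of microglia-like, oligodendrocyte-like and endothelial-like cells, filled circles for Fit2-WT and open squares for Fit2-Mut, with 95% Poisson intervals. In microglia-like cells ferritin is lowest and Slc40a1 highest in cluster 14, and Tfrc and Slc40a1 are lower and Cp higher in the small endothelial-like cluster 27.

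The comparison of the libraries asks what changes in brain cells when Fit2, a protein of the endoplasmic reticulum needed for lipid droplets, is disrupted in macrophages. In the cells most directly concerned, the microglia-like, none of the 8 genes passed 1.5-fold, and 5.09% of the 10044 genes with at least 50 UMIs did so in either direction. Fth1 was 0.985 times (0.974 to 0.997) and Ftl1 0.938 times (0.923 to 0.953) the Fit2-WT level in Fit2-Mut. Trf was 1.03 times (0.995 to 1.07), Slc40a1 0.908 times (0.709 to 1.16), Hmox1 0.968 times (0.812 to 1.15), Tfrc 1.12 times (0.709 to 1.77) and Slc11a2 1.11 times (0.821 to 1.5). Cp, at 7.38 and 10.9 CPM, was just inside the limit at 1.47 times (0.996 to 2.21).

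The pooled ferritin ratios in microglia-like cells did not match those within clusters. Fth1 was 1.01 times (0.970 to 1.06) in cluster 14, 1.03 times (1.02 to 1.05) in cluster 7 and 1.01 times (0.987 to 1.04) in cluster 11, at or above 1 in all 3 although the pooled ratio was below 1. Ftl1 was 0.995 times (0.940 to 1.05), 0.970 times (0.952 to 0.989) and 1.01 times (0.976 to 1.05), each nearer to 1 than the pooled 0.938. The ferritin-rich cluster 11 supplied 14% of the UMIs of the type in the first library and 9.29% in the second. Scaling by TMM or by the median of ratios moved the pooled values to 0.951 for Fth1 and 0.905 for Ftl1.

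Over the 7 larger types, 42 ratios of the 8 genes had at least 50 UMIs, and 2 of them passed 1.5-fold. The gene-wide shares past 1.5-fold in either direction were 3.73% in oligodendrocyte-like, 3.30% in astrocyte-like, 2.62% in choroid plexus epithelium-like, 5.66% in endothelial-like, 9.38% in T cell-like and 8.41% in ependymal-like cells. Read against these shares, 2 of 42 is not a result about the iron genes. The median log2 ratio of the iron genes ranged over the 7 types from -0.14 in ependymal-like to 0.16 in T cell-like cells, where the medians of all genes were 0.02 and 0.03.

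Within the 16 clusters of these types, 8 of 75 ratios of the 8 genes (10.7%) passed 1.5-fold, against 5.99% over all genes in the same clusters, and 6 of the 8 were in astrocyte-like clusters. Those clusters held 19 of the ratios, so 31.6% of theirs passed. No gene-wide share was counted for the astrocyte-like clusters alone, so these shares are not read as a result about the iron genes. Fth1 in cluster 15 was 582 and 942 CPM (1.62 times, 1.38 to 1.91), and Ftl1 in cluster 9 was 104 and 53.8 CPM (0.520 times, 0.367 to 0.728). Trf was 16.7 and 43.1 CPM in cluster 3 (2.58 times), 10.2 and 18.1 CPM in cluster 5 (1.77 times) and 238 and 155 CPM in cluster 15 (0.653 times), so its direction differed among these clusters. Slc11a2 in cluster 5 was 1.52 times (0.808 to 3.03), and Cp in the oligodendrocyte-like cluster 6 was 0.649 times (0.375 to 1.12). The last of the 8 was Trf in the ependymal-like cells, which form 1 cluster. No ratio within the microglia-like, endothelial-like, choroid plexus epithelium-like or T cell-like clusters passed.

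Of the ratios over whole types, the first past the limit was that of Hmox1 in oligodendrocyte-like cells, which had 18 UMIs in 18 Fit2-WT cells and 51 UMIs in 48 Fit2-Mut cells, or 2.46 and 4.96 CPM. The Fit2-Mut level was 2.02 times (1.16 to 3.67) the other, and 2.44% of genes in the type were higher by 1.5-fold or more. A UMI was seen in 2.45% and 5.17% of cells, and Hmox1 in free RNA was at 8.40 and 10.8 CPM. Summed microglial markers in the type were 83.5 and 91.0 CPM. Nearly every cell with Hmox1 held a single UMI, so cells with most Hmox1 could not be set apart.

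The other was Trf in ependymal-like cells, with 98 UMIs (87.4 CPM) in Fit2-WT and 20 UMIs (13.8 CPM) in Fit2-Mut, 0.158 times (0.0923 to 0.257); 3.74% of genes in the type were lower by 1.5-fold or more. In Fit2-WT, 5 of 108 cells held 76.5% of these UMIs, and in 1 of the 5 the 7 oligodendrocyte markers reached 12464 CPM. Without the 5 highest cells of each library the levels were 22.0 and 7.98 CPM (0.363 times). With called doublets kept the direction turned (2.28 times), so this ratio did not hold up.

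Elsewhere the abundant genes were close. In oligodendrocyte-like cells Fth1 was 0.997 times, Ftl1 0.976 times and Trf 1.01 times the Fit2-WT level, and in endothelial-like cells Tfrc was 1.04 times (0.921 to 1.18) and Slc40a1 0.879 times (0.771 to 1.0). Choroid plexus epithelium-like cells had Trf at 0.867 times (0.829 to 0.908) and Fth1 at 0.975 times. Astrocyte-like cells had Fth1 at 1.09 times (1.05 to 1.13) and Tfrc at 1.2 times (1.0 to 1.43), and T cell-like cells Fth1 at 1.12 times (1.04 to 1.2). Ftl1 was 0.786 times (0.712 to 0.869) in ependymal-like cells. These intervals do not hold the difference between mice, so a ratio whose interval leaves out 1 is not shown to differ between the genotypes.

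Types with under 100 cells gave larger ratios that rested on few cells. Trf was 143 and 48.1 CPM in neuroblast-like cells (0.335 times, 0.242 to 0.464), with 96.6% of the 88 Fit2-WT UMIs in 5 cells, and outside the 5 highest cells of each library the order turned (5.67 and 12 CPM). Cp was 178 and 40.3 CPM in border-associated macrophage-like cells (0.226 times, 0.157 to 0.322), with 84.8% and 63.3% in 5 cells. Fibroblast and smooth muscle markers were at 0 in those 5 Fit2-WT cells, and their endothelial markers summed to 30 CPM. Without the 5 cells per library Cp stood at 30.7 and 16.8 CPM. With finer clusters the border-associated macrophage-like Cp level was 205 and 68.1 CPM. Hmox1 in monocyte-like cells was 1.83 times (1.24 to 2.70), yet without the 5 highest cells the order turned (77.5 and 34.4 CPM).

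**Figure D5:**
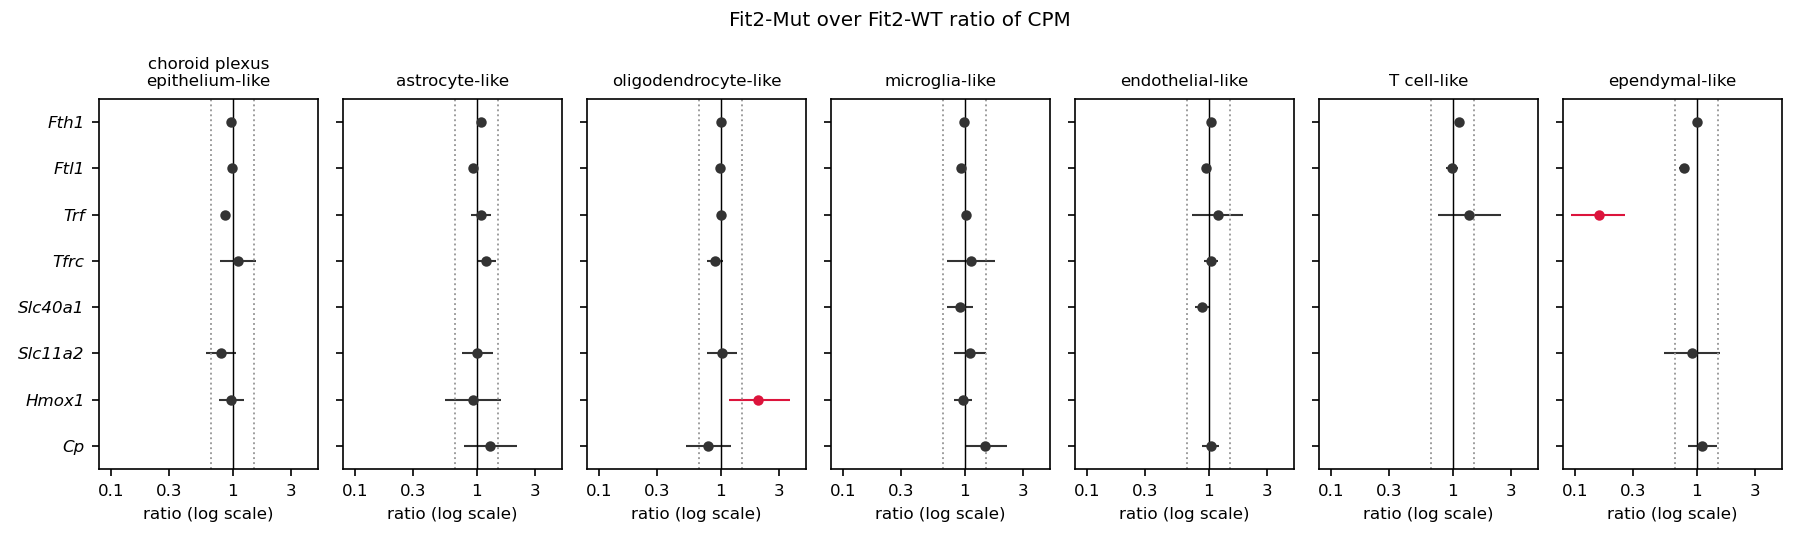
Fit2-Mut over Fit2-WT ratio of CPM (log axis) for the 8 genes in the 7 types with at least 100 cells per library, with exact conditional 95% intervals for counting error. Dotted lines mark 1.5-fold either way and red the ratios past it, which are Hmox1 in oligodendrocyte-like and Trf in ependymal-like cells. Genes with fewer than 50 UMIs in a type are not drawn.

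A further 53 genes of iron and haem handling were counted as background of the pathway: iron regulatory proteins, ferritin loading and turnover, uptake, export and hepcidin, mitochondrial iron, haem handling, and the NRF2 and BACH1 axis with ferroptosis defence. Between 10 (T cell-like) and 38 (astrocyte-like) of them had at least 50 UMIs in a type. Their median log2 ratio lay between -0.07 and 0.01 in the 7 types. In microglia-like cells 1 of 32 passed 1.5-fold, and in oligodendrocyte-like and choroid plexus epithelium-like cells none of 28 and of 37 passed.

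Over all 7 types 6 of 197 such ratios (3.05%) passed. That share lies within the gene-wide shares of 2.62% to 9.38% and is not a result about iron genes; the 6 are given as values. Abcb8, part of a mitochondrial potassium channel linked to iron export, had 4.92 and 7.79 CPM in microglia-like cells (1.58 times, 0.983 to 2.60). Bmp6, a signal from liver endothelium that induces hepcidin, had 13 and 5.95 CPM in astrocyte-like cells (0.456 times, 0.313 to 0.658). Lcn2, a carrier of iron-binding siderophores, had 21.5 and 43.9 CPM in endothelial-like cells (2.04 times, 1.36 to 3.1). Flvcr1, a haem and choline transporter, had 70.4 and 108 CPM (1.54 times, 1.16 to 2.04) and the reductase Nqo1 16.0 and 28.2 CPM (1.76 times, 0.989 to 3.25) in ependymal-like cells. Gclm, a subunit of the enzyme of glutathione synthesis, had 56.7 and 27.7 CPM in T cell-like cells (0.489 times, 0.287 to 0.812).

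The genes of most similar pattern were ranked by Pearson's r of log2(CPM + 1) over 30 points (15 types in 2 libraries) among 10480 genes with at least 50 CPM in some type. These values are descriptions, since the points of a type share clusters and those of a library share free RNA. Fth1 and Trf were each other's nearest gene (r = 0.837), and Hmox2, the constitutive haem oxygenase, was second for both (0.797 and 0.788). Ftl1 was nearest to its pseudogene Ftl1-ps1 (0.912), and then to Serp1 (0.854) and Rab32 (0.852). Hmox1 was nearest to Hfe (0.863), Nfe2l2 (0.861) and Lilra5 (0.859).

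Tfrc lay nearest to Far2 (0.810), Dpp8 (0.809) and Thsd1 (0.770), and Slc40a1 to Ier3 (0.821), Ets2 (0.812) and Slco2b1 (0.80). For Cp the nearest were Dnajc10 (0.860), Ecm1 (0.858) and Prkg1 (0.820), and for Slc11a2, low in all types, Nudt9 (0.808), Vps50 (0.80) and Gclc (0.789). Among the 8 genes themselves, the pairs next in likeness to Fth1 and Trf were Ftl1 and Hmox1 (0.83) and Ftl1 and Trf (0.61). Tfrc and Slc40a1, both highest in endothelial-like cells, had only 0.17 over all types.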

How the data were processed

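The 2 libraries (10x 3' v3.1, whole brain) were analysed as UMI counts per gene and barcode, deposited by the authors as unfiltered matrices from Cell Ranger 7.1.0, per the file headers; the submitters' processing notes name Cell Ranger 7.0.0 and mm10. The annotation release and the handling of introns are not given in the sources used here. Total counts were 52491901 UMIs (Fit2-WT) and 63234140 UMIs (Fit2-Mut). Barcodes with at least 1000 UMIs, 500 genes and at most 10% mitochondrial UMIs were kept (5333 and 5979), and 124 and 155 Scrublet doublets removed; 9 kept barcodes were shared by the libraries (0.173% and 0.155%). Cells were clustered with scanpy 1.11.5 (2000 variable genes, 30 components, 15 neighbours, Leiden resolution 1) and clusters named from 21 marker lists.

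Of the 28 clusters, 4 stayed unnamed (119 cells, 2.28%, and 193 cells, 3.31%). The rule that kept lymphocyte clusters with microglial markers unnamed was set after the clusters were seen; it affects 38 and 62 B cell-marked and 12 and 42 T cell-marked cells. Oligodendrocyte marker sums use 7 genes of that list; 1 other is not reported here. UMIs were summed per type and library; the limit for 0 counts is 3 counts. A ratio of 1.5-fold and at least 50 UMIs define the genes counted as past the limit. All 8 genes are named in every type, and of the 53 other iron genes those past the limit. The 8 genes, lists and limits were chosen with earlier results of these data known. Alternatives were other filters, type assignments, scalings (edgeR 4.0.16) and free RNA subtraction. The ratio, its interval and the 1.5-fold limit were tested on simulated Poisson counts, and the other steps were not simulated. Gm10252, Gm22133 and Gm20425 overlap Ftl1 and Trf in GENCODE M21 and were not among the counted genes.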

Additional observations from a re-analysis of the deposited data

Results flagged for a closer look

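Each result below moved in another direction between the libraries than the same gene did in other types. With 1 library per genotype none of these differences between types was tested, and the share of a few cells in each is given beside it.

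Transferrin (Trf) in ependymal-like cells was 0.158 times the Fit2-WT level in Fit2-Mut, with 76.5% of the 98 Fit2-WT UMIs in 5 cells. In neuroblast-like cells Trf was 0.335 times, and outside the 5 highest cells the levels were 5.67 and 12 CPM, so the direction turned. In fibroblast-like cells Trf was 0.441 times (384 and 170 CPM), with 73.0% and 59.6% of UMIs in 5 cells and 118 and 73.3 CPM outside them. Finer clusters gave a fibroblast-like cluster of 38 and 65 cells, with Trf at 8.45 and 19.1 CPM. Another of 22 and 16 cells had 1190 CPM in Fit2-WT, and its Fit2-Mut level was not computed. The part of this make-up in the ratio was not tested. In monocyte-like cells Trf was 1.91 times (213 and 408 CPM), and in Fit2-Mut 7 oligodendrocyte markers reached 9178 CPM in 1 of the 5 highest cells. Outside those 5 cells the monocyte-like levels were 131 and 167 CPM.

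Ceruloplasmin (Cp) in border-associated macrophage-like cells was 0.226 times, with 84.8% of the 99 Fit2-WT UMIs in 5 cells. In smooth muscle-like cells Cp was 1.71 times (197 and 336 CPM), and outside the 5 highest cells the levels were 133 and 227 CPM, in the same direction. Fibroblast markers in the smooth muscle-like cells summed to 297 and 782 CPM, and to 235 and 876 CPM outside the 5 highest cells. Endothelial markers went the other way, at 1309 and 1009 CPM over the type. They reached 6156 CPM in 1 of the 5 Fit2-Mut cells with most Cp. The part of cells with such markers in these ratios was not tested.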

How the results depend on the processing

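Of 565 recomputed member ratios (42 ratios, 14 settings), 512 stayed within the counting interval of the reported value and 21 moved by over 1.5 times. Fth1 in microglia-like cells (0.985) became 0.967 with doublets kept, 1.01 with cells weighted equally, 0.963 with cells thinned to 1000 UMIs, and 0.951 with TMM or median of ratios scaling; Ftl1 (0.938) became 0.905 with either scaling. Trf in ependymal-like cells (0.158) became 2.28 with doublets kept, 0.258 at no more than 5% mitochondrial UMIs, 0.715 with types by marker share per cell, 0.397 thinned, 0.363 without the 5 highest cells, and 0.00676 with free RNA subtracted. The count of ratios past 1.5-fold (2) was 6 with doublets kept, 4 by marker share, 5 with the T cell cluster rich in microglial markers kept, 0 thinned, 0 at 200 UMIs or more, and 8 at the lower fold limit tried; keeping that cluster moved Ftl1 (0.983) to 1.83 and Trf (1.36) to 2.20 in T cell-like cells. The count of ratios past 1.5-fold among the other iron and haem genes (6) was 16 at 20 UMIs and 1 at 200 UMIs. No share over all genes was counted under these settings, so none of these counts is read as a result about the iron genes. The 2 ratios rest on 18 and 51 UMIs (Hmox1) and on 98 and 20 UMIs (Trf), so neither could be counted at 200 UMIs or more. Thinned, Trf in ependymal-like cells (0.397) and Hmox1 in oligodendrocyte-like cells (at least 1.58) were still past 1.5-fold. The 0 with thinned cells is thus set by the minimum of UMIs and does not show that these differences were lost. The cause of the changes in count with doublets kept, by marker share and with the T cell cluster kept was not tested. Hmox1 in oligodendrocyte-like cells (2.02) stayed between 1.58 and 2.65. Of 16 pairs of gene and library, 16 kept their highest type of the 7 under every setting run but marker share (14), where Slc11a2 was highest in microglia-like cells (15.2 and 15.1 CPM). The 3 settings on haemoglobin-rich cells, alone and with free RNA subtracted, and on that cluster were chosen after seeing the data. Subtraction scaled by haemoglobin could not be fitted in choroid plexus epithelium-like and astrocyte-like cells or in Fit2-Mut endothelial-like and T cell-like cells until cells with at least 1% haemoglobin UMIs were left out. No paired analysis was possible because each genotype has 1 library and the labels carry no replicate numbers. Depth limits Slc11a2, Hmox1, Tfrc and Cp in the smaller types to wide intervals.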

Other observations

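Some of the 53 other iron and haem genes were highest in the same type in both libraries; those named here were chosen after their values were seen. Slc48a1, a haem transporter of lysosomes, was at 500 and 483 CPM (Fit2-WT and Fit2-Mut) in oligodendrocyte-like cells, as were Hmox2 at 245 and 222 CPM and Fech, the last enzyme of haem synthesis, at 68.2 and 67.1 CPM. Slc39a8, a divalent metal importer, was at 121 and 146 CPM in endothelial-like cells, and the ferritin turnover receptor Ncoa4 at 80.2 and 83.2 CPM. Heph, a ferroxidase related to ceruloplasmin, was at 39.6 and 34.6 CPM in astrocyte-like cells. Hfe was at 250 and 247 CPM in monocyte-like cells, Cd163, the haemoglobin scavenger receptor, at 73.8 and 52.6 CPM in border-associated macrophage-like cells, and Hp, haptoglobin, at 2514 and 1628 CPM in neutrophil-like cells. Cd163 is also among the markers that named the border-associated macrophage-like cells, so its place there is partly set by the naming. Hamp, which encodes hepcidin, had 3 UMIs in both libraries together, Ftmt, the mitochondrial ferritin, had 0, and Tfr2, the second transferrin receptor, had 43.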
